A study of Mytilus galloprovincialis with 12 samples.

Results

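Chlorpyrifos and 17β-estradiol were each compared with vehicle in the digestive gland of female mussels, and 80 cDNA clones of the array are described here that were lower with chlorpyrifos (CHP) and close to vehicle with estradiol (E2). They were chosen on the deposited log2 ratios, after averaging the 2 spots of each clone on each array. A clone was taken when its ratio was below 0 on all 4 CHP arrays with a mean of at most -0.25, and its mean over the 4 E2 arrays lay between -0.25 and 0.25. A log2 ratio of -0.25 is 0.841 of the vehicle level. The 80 clones were 4.41% of the 1816 clones with a deposited value, and the array carries 1920 clones. Their CHP and E2 ratios made the choice and are given below as a description, without a test. The CHP/E2 arrays took no part in the choice, and the tests are on their ratios. The spread in these tests was estimated from the arrays of all groups, including the CHP and E2 arrays that made the choice.

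The digestive gland is the main organ of the mussel for the intracellular digestion of food, for metabolic storage and for the detoxification of contaminants. Chlorpyrifos is an organophosphate pesticide whose oxidised metabolite inhibits acetylcholinesterase. Estradiol is the main vertebrate estrogen, and injected estradiol is used in bivalves to probe steroid responses. On a dual color cDNA array, treated and vehicle RNA carry different dyes and compete for the same spot, so that each value is a ratio of the 2 RNAs.

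Mussels (Mytilus galloprovincialis) were sampled in October, and each array held RNA from 1 pool of 6 digestive gland pieces. The CHP group was exposed in aquaria to 4.5 mg/L chlorpyrifos. The E2 group was injected with 25 pmol of estradiol, and the CHP/E2 group received both, with the injection after the pesticide exposure had begun. The labels give 4 days of pesticide for CHP and 3 days for CHP/E2, whereas the methods describe one schedule for both, in which the injection followed 3 days of exposure. The vehicle animals received 0.02% DMSO in the water and an injection of 50 µl of artificial sea water with 0.05% ethanol. By the methods, the CHP group was also given the vehicle injection, and the E2 group had DMSO in the water before its injection. Tissues were sampled the day after injection. There were 4 arrays per group, 12 in all, and every array used vehicle RNA as its reference, so the 3 comparisons share it. Replicate 3 of CHP, replicate 4 of E2 and replicate 4 of CHP/E2 had the dyes exchanged, with treated RNA in Cy3, and their ratios were turned. By the pool numbers in the scan names, E2 replicate 4 carried the treated pool of E2 replicate 2. CHP/E2 replicate 4 likewise carried that of CHP/E2 replicate 3. The labels list both as replicates of their own, and the methods give 4 biological replicates per condition. A pool of whole tissue pieces cannot tell fewer cells of a type from less RNA per cell.

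Some arrays went against their group labels. Across all clones the recomputed ratios of CHP/E2 replicate 4 correlated with those of CHP/E2 replicates 1, 2 and 3 at -0.30, -0.43 and -0.16, whereas those 3 correlated with each other at 0.51 to 0.67. With CHP replicates 3 and 4, arrays that share the vehicle reference with it, CHP/E2 replicate 4 correlated at 0.72 and 0.62. CHP replicate 2 correlated with CHP replicates 3 and 4 at -0.32 and -0.27, and with CHP/E2 replicates 1, 2 and 3 at 0.43 to 0.45. The lowest correlation of any pair was -0.57, between CHP/E2 replicate 2 and CHP replicate 4, both with treated RNA in Cy5. The direction of every ratio was kept as the dyes in the labels give it. Within the E2 group, replicate 1 correlated with replicates 2, 3 and 4 at 0.23, 0.07 and 0.10, and with CHP/E2 replicates 1, 2 and 3 at 0.67, 0.63 and 0.49. The main counts on the CHP/E2 arrays, and the clone means that it moves most, are therefore also given without CHP/E2 replicate 4. The choice of clones itself was limited most by CHP replicate 2. Without that array the same rule took 163 clones, against 105, 82 and 120 without CHP replicates 1, 3 and 4. In each case fewer arrays had to be below 0, which loosens the rule.

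The files pair no clone with a gene. The RefSeq gene table given for the species held 0 of the 1920 IDs, so clones are named by their ID, which holds the source plate, row and column.

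In the deposited ratios, the CHP means of the 80 clones were between -1.23 and -0.25, with a median of -0.34. Below 0 on all 4 CHP arrays were 200 clones, 11% of those with a deposited value, and 107 of these had a mean of at most -0.25. The E2 limit then removed 27, of which 26 were lower and 1 was higher with E2. The last clone inside the CHP limit was Myt01-001A05 with a deposited mean of -0.251, and the first outside was Myt01-005A06 with -0.249. Myt01-015G08 (-0.259) and Myt01-015F03 (-0.261) followed on the inner side, and Myt01-019F06 (-0.248) and Myt01-013H01 (-0.245) on the outer side. At the E2 limit, Myt01-014D12 (-0.24), Myt01-002E02 (-0.234) and Myt01-018C11 (-0.23) were just inside. Myt01-018E08 (-0.255), Myt01-013F11 (-0.256) and Myt01-005F06 (-0.265) were just outside. These clones were alike in the ratio that the limit applied to, and could be far apart in others. The deposited CHP mean was -1.22 for Myt01-013F11 outside the E2 limit and -0.312 for Myt01-014D12 inside it.

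All values from here on are log2 ratios of treated over vehicle RNA recomputed from the scanner intensities, unless called deposited. The recomputed CHP means were closer to 0, with a median of -0.26 and a range of -1.08 to 0.06 over the 80 clones, against a median of -0.0032 over all clones. Of the 80 clones, 78 had a mean below 0 with CHP and 58 were below 0 on all 4 CHP arrays (11.7% of all clones were). The whole rule was met by 36 of the 80 on recomputed ratios, where 3.25% of all clones met it. The CHP mean was above -0.25 in 39 of the clones that missed it, and 22 were not below 0 on every CHP array. With E2 the median over the 80 means was -0.05 (range -0.28 to 0.20), and 1 clone, Myt01-014D12, lay outside the E2 limit.

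The CHP arrays did not contribute equally. The median ratio of the 80 clones was -0.25 on replicate 1, -0.11 on replicate 2, -0.39 on replicate 3 and -0.25 on replicate 4. Replicate 3, the array with exchanged dyes, was the lowest of the 4 for 34 of the clones (42.5%, against 28.1% of all clones), and replicate 2 was the lowest for 5 of them (6.25%, against 25.9% of all clones). On the E2 arrays the medians were 0.02, -0.07, -0.02 and -0.12 for replicates 1 to 4. Replicate 4, with exchanged dyes, was the lowest of the E2 arrays for 37 of the clones (46.2%, against 32.6% of all clones).

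**Figure D1:**
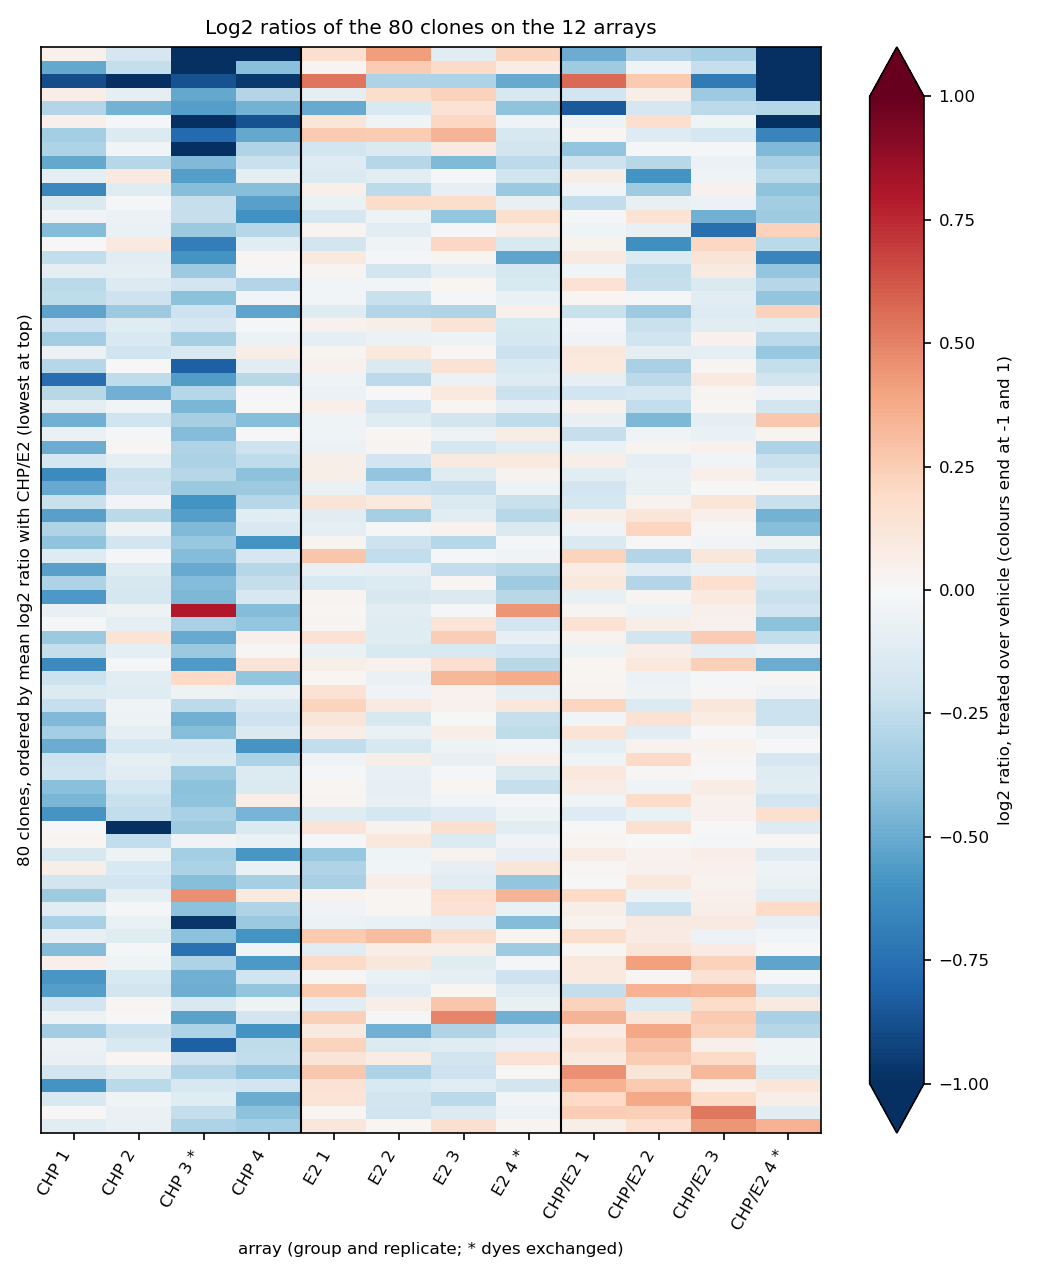
Log2 ratio (treated over vehicle, recomputed) of the 80 clones, 1 per line, on the 12 arrays, with the 4 arrays of each treatment side by side and an asterisk on arrays with exchanged dyes; blue is below vehicle and red above. The CHP columns are mostly blue, the E2 columns are mixed, and CHP/E2 replicate 4 is bluer than CHP/E2 replicates 1 to 3.

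With CHP/E2 the 80 clones lay close to vehicle. Their means had a median of -0.05, with quartiles of -0.12 and 0.01 and a range of -0.67 to 0.25, against a median of -0.0088 over all clones. The mean was below 0 for 55 of the 80 clones (68.8%, against 53.9% of all clones). It was -0.25 or lower for 6 (7.5%, against 7.21% of all clones) and 0.25 or higher for 1 (1.25%, against 8.98% of all clones). The other 73 lay between these limits (91.2%, against 83.8% of all clones). Over replicates 1 to 3 alone, the mean was below 0 for 39 of the 80 clones (48.8%, against 50.6% of all clones), -0.25 or lower for 3 (3.75%, against 9.64% of all clones) and 0.25 or higher for 3 (3.75%, against 9.2% of all clones). The SD over the 4 arrays of a clone had a median of 0.16, against 0.18 over all clones. In 72 of the 80 the mean was smaller in size than this spread between its own arrays. The share over all clones is not given here, so nothing is read from that count.

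**Figure D2:**
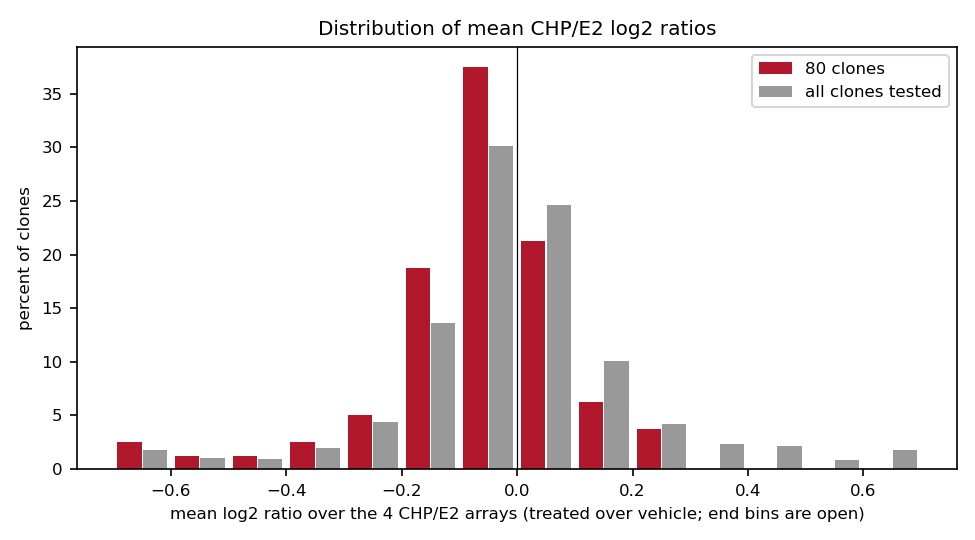
Percent of clones (vertical axis) by mean log2 ratio over the 4 CHP/E2 arrays in steps of 0.1 (horizontal axis, treated over vehicle), for the 80 clones (red) and all 1816 clones tested (grey). Of the 80 clones, 30 lie between -0.1 and 0 and none at 0.3 or above.

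None of the 80 clones was called with CHP/E2. By the B statistic of limma over 0, the log odds of a change that the methods use, 0 of the 80 were called. Over all clones 0.771% were called, all 14 of them higher. No clone tested was called lower here. With its own processing the paper reported more genes with CHP/E2 by this criterion, mostly higher and some lower. At so small a share over all clones, nothing about the 80 is read from the 0. By a Benjamini-Hochberg adjusted p under 0.05 it was again 0 of the 80, against 0.33% of all clones. At an unadjusted p under 0.05, 5 of the 80 were lower (6.25%), where 4.46% of all clones were, and 4 were higher (5.0%), where 8.2% of all clones were. These shares lie near those of all clones. The spread in this fit also came from the CHP and E2 arrays, which made the choice. With the CHP/E2 arrays fitted alone, 3 of the 80 were lower at this p (3.14% of all clones were). In that fit 3 were higher (6.61% of all clones were), and 0 were called by B over 0 (0.551% of all clones were). Below 0 on all 4 CHP/E2 arrays were 8 of the 80 clones (10.0%, against 7.32% of all clones), and above 0 on all 4 were 3 (3.75%, against 10.5% of all clones).

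The CHP/E2 arrays split by replicate. The median ratio of the 80 clones was 0.02 on replicate 1, -0.03 on replicate 2, 0.04 on replicate 3 and -0.18 on replicate 4, where the medians of all clones were -0.0016, 0.0028, 0.0034 and 0.0014. On replicate 4, 66 of the 80 were below 0 (82.5%, against 49.9% of all clones). Below 0 were 34 on replicate 1 (42.5%, against 50.3% of all clones) and 43 on replicate 2 (53.75%, against 49.2% of all clones). On replicate 3 it was 30 (37.5%, against 49.2% of all clones). Replicate 4 was the lowest of the 4 arrays for 49 of the 80 (61.3%, against 33.9% of all clones), and replicate 2 was for 16 (20%, against 29.1% of all clones). Without it the median over the 80 clones was 0.0037. On replicates 1 to 3 alone, 13 of the 80 were below 0 on every array (16.2%, against 19.1% of all clones) and 18 were above 0 on every array (22.5%, against 19.2% of all clones). Replicate 4 is also the array with exchanged dyes in its group. The exchanged array was the lowest of its group in all 3 treatments for 11 of the 80 clones (13.8%, against 7.21% of all clones). With a dye term in the fit, 18 of the 80 were lower at an unadjusted p under 0.05 (22.5%, against 9.58% of all clones). The dye term was shared by the 3 treatments, so these 18 also rest on the CHP and E2 arrays, which made the choice. Without CHP/E2 replicate 4 the count was 5 (6.25%, against 5.34% of all clones), with 6 clones higher (7.32% of all clones were), and without the 3 arrays with exchanged dyes it was 4 (5.0%, against 6.99% of all clones). It was 11 without CHP/E2 replicate 1 (13.8%, against 4.63% of all clones) and 9 when the 2 spots of a clone entered the fit apart (11.2%, against 5.95% of all clones). The part of the dye orientation in these values was not tested.

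**Figure D3:**
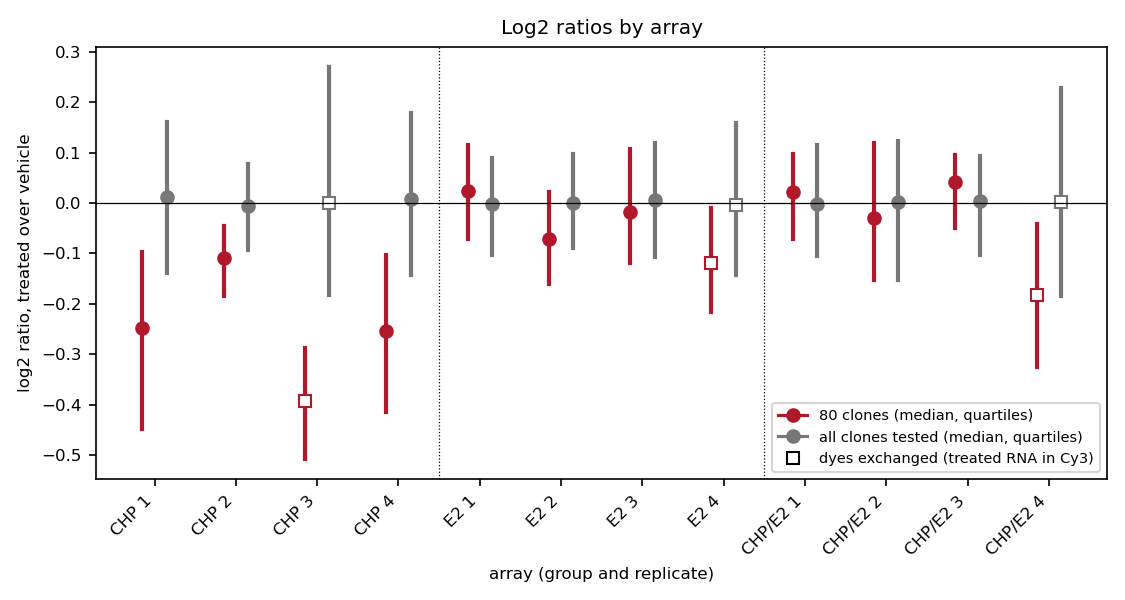
Median (symbol) and quartiles (line) of the log2 ratio, treated over vehicle, on each of the 12 arrays, for the 80 clones (red) left of all clones tested (grey); open squares mark arrays with treated RNA in Cy3. The medians of the 80 clones lie between -0.39 and -0.11 on the CHP arrays and between -0.03 and 0.04 on CHP/E2 replicates 1 to 3, against -0.18 on CHP/E2 replicate 4.

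Set beside their CHP values, 72 of the 80 clones had a CHP/E2 mean above their CHP mean (90%, against 50.3% of all clones). In 16 of them every CHP/E2 array was above every CHP array (20%, against 3.47% of all clones). Low CHP values chose the clones and fix this direction, so nothing is read from these counts.

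The 8 clones below 0 on all 4 CHP/E2 arrays were few but differed widely in size. Myt01-015H12 had ratios of -0.84, -0.17, -0.27 and -0.29 on CHP/E2 replicates 1 to 4, with a mean of -0.39 ± 0.31 (SD, n = 4) and an adjusted p of 0.181 in limma. It was as low on the CHP arrays, with -0.29, -0.48, -0.55 and -0.48, so its arrays of the 2 treatments overlapped. On the E2 arrays it had -0.50, -0.16, 0.14 and -0.40. Myt01-014D12 had -0.20, -0.28, -0.06 and -0.32 on the CHP/E2 arrays, a mean of -0.22 ± 0.12 (SD, n = 4) and an adjusted p of 0.201 in limma. Its means were -0.36 ± 0.13 with CHP and -0.28 ± 0.13 with E2 (SD, n = 4 each), so this clone was below vehicle to a similar extent in all 3 treatments. Without CHP/E2 replicate 1 the CHP/E2 mean of Myt01-015H12 was -0.24, and without replicate 4 it was -0.43.

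Myt01-017D05 had -0.40, -0.02, -0.02 and -0.44 on CHP/E2 replicates 1 to 4, and its lowest CHP value was -1.06 on replicate 3, with the other CHP arrays at -0.31, -0.03 and -0.30. Its CHP/E2 mean was -0.22, and -0.15 without replicate 4. In 3 more of the 8 clones the ratios were smaller. The CHP/E2 mean was -0.18 ± 0.14 for Myt01-005H12, -0.12 ± 0.08 for Myt01-018A11 and -0.06 ± 0.06 for Myt01-006D02 (SD, n = 4 each). Their CHP means were -0.23, -0.13 and -0.39. Myt01-018A11 had thus nearly the same mean in both treatments.

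In 5 of the 80 clones CHP/E2 replicate 4 was below -1, and these 5 were also the ones whose SD over the CHP/E2 arrays was over 0.5. Among all clones 18 were below -1 on that array. Myt01-017B09 had -0.50, -0.29, -0.33 and -1.58 on CHP/E2 replicates 1 to 4, a mean of -0.67 ± 0.61 (SD, n = 4) and an adjusted p of 0.258 in limma. Without replicate 4 its mean was -0.37. On the CHP arrays it had 0.05, -0.17, -1.17 and -0.99, so that replicates 3 and 4 carried the low CHP mean, while its E2 arrays lay at 0.16, 0.42, -0.11 and 0.22. Myt01-012H12 had -0.36, -0.05, -0.23 and -1.86 on the CHP/E2 arrays, with a mean of -0.62 ± 0.83 (SD, n = 4), an adjusted p of 0.321 in limma and a mean of -0.21 without replicate 4. It was below vehicle on all 4 CHP arrays at -0.51, -0.24, -1.16 and -0.42 and above vehicle on all 4 E2 arrays at 0.03, 0.25, 0.19 and 0.07. Both clones stayed below 0 on each of CHP/E2 replicates 1 to 3.

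The other three of these 5 clones did not. Myt01-004C02, the clone with the lowest CHP mean, had CHP ratios of -0.88, -1.60, -0.87 and -0.96. Its CHP/E2 arrays ran over a wider range than those of any other of the 80, with 0.57, 0.26, -0.71 and -2.20 on replicates 1 to 4, and the mean of -0.52 ± 1.25 (SD, n = 4) became 0.04 without replicate 4. On the E2 arrays it was at 0.54, -0.31, -0.31 and -0.51, so that replicate 1 was high and replicate 4 low in both groups that received estradiol. Myt01-017F05 had -0.05, 0.16, -0.04 and -1.31 on the CHP/E2 arrays, and 0.02 as the mean of replicates 1 to 3. With CHP it was at 0.05, -0.02, -1.32 and -0.87, low on the same 2 replicates as Myt01-017B09. Only 1 of its CHP/E2 arrays had both spots above background. Myt01-005B05 had -0.19, 0.06, -0.37 and -1.14 on the CHP/E2 arrays (mean -0.41 ± 0.52, SD, n = 4, adjusted p = 0.322 in limma), and -0.17 without replicate 4. Its CHP arrays showed the same split, with 0.06 and -0.09 on replicates 1 and 2 and -0.51 and -0.30 on replicates 3 and 4.

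Of the 10 clones with the lowest deposited CHP means, 3 were near vehicle with CHP/E2 by the recomputed ratios. Myt01-009F10 owed its CHP mean to replicate 2, with CHP ratios of -0.01, -0.996, -0.35 and -0.15, and its CHP/E2 mean was 0.0043 ± 0.12 (SD, n = 4), with both spots above background on 2 of those arrays. Myt01-019D03 had CHP ratios of -0.44, -0.01, -0.75 and -0.05 and a CHP/E2 mean of 0.05 ± 0.06 (SD, n = 4), but its spots did not stand above background on any CHP/E2 array. Myt01-004H11 was lowest on CHP replicate 3 at -0.97, with -0.32, -0.06 and -0.37 on replicates 1, 2 and 4. Its CHP/E2 arrays lay at 0.04, 0.09, 0.09 and -0.08. For these 3 clones all recomputed CHP/E2 ratios lay between -0.13 and 0.15. The deposited CHP/E2 ratios of Myt01-019D03 were higher, at 0.24, 0.535, 0.59 and 0.12, with a mean of 0.371. Deposited CHP/E2 means were 0.0525 for Myt01-009F10 and 0.06 for Myt01-004H11.

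Myt01-004C11 was below vehicle on all 4 CHP arrays (-0.34, -0.14, -0.77 and -0.51), and above it on E2 replicates 1 to 3 (0.26, 0.26 and 0.34) with -0.16 on E2 replicate 4. With CHP/E2 it had 0.02, -0.13, -0.18 and -0.66, and its mean of -0.24 had an adjusted p of 0.461 in limma. Without CHP/E2 replicate 4 its mean was -0.10. It was the one of the 80 called by B over 0 with a dye term, at -0.36 with an adjusted p of 0.0242 in limma. That term is shared by the 3 treatments, so the call also rests on CHP and E2 arrays, which made the choice. Myt01-018G05 had CHP ratios of -0.29, -0.01, -0.82 and -0.10, and 0.10, -0.32, 0.03 and -0.24 on the CHP/E2 arrays. Its CHP/E2 arrays lay on both sides of vehicle.

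At the upper end, 5 clones below vehicle with CHP had CHP/E2 means between 0.19 and 0.25. Myt01-009A06 had 0.06, 0.16, 0.44 and 0.35 on CHP/E2 replicates 1 to 4, a mean of 0.25 ± 0.17 (SD, n = 4) and an adjusted p of 0.152 in limma, the lowest of the 80 clones. On the CHP arrays it was at -0.12, -0.07, -0.31 and -0.34, so that its arrays of the 2 treatments did not overlap. Low CHP values chose this clone and a high CHP/E2 mean named it, so nothing is read from that gap. Myt01-010B03 had 0.20, 0.38, 0.18 and 0.07 on the CHP/E2 arrays and -0.16, -0.04, -0.12 and -0.49 on the CHP arrays. Myt01-018B08 had 0.35, 0.27, 0.05 and 0.12 with CHP/E2 and -0.60, -0.27, -0.16 and -0.19 with CHP. These 3 clones were the ones above vehicle on all 4 CHP/E2 arrays, and their adjusted p values in limma were 0.152, 0.34 and 0.353.

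Myt01-015F03 and Myt01-005D09 were above vehicle on CHP/E2 replicates 1 to 3 and below it on replicate 4. The CHP/E2 ratios of Myt01-015F03 were 0.25, 0.24, 0.53 and -0.11, with an adjusted p of 0.349 in limma, and those of Myt01-005D09 were 0.45, 0.12, 0.32 and -0.15, with an adjusted p of 0.508 in limma. Without replicate 4 their means were 0.34 for Myt01-015F03 and 0.30 for Myt01-005D09. On the E2 arrays all 5 clones of the upper end had means between -0.09 and 0.08. Myt01-005D09 varied most there, with 0.27, -0.31, -0.21 and 0.01.

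**Figure D4:**
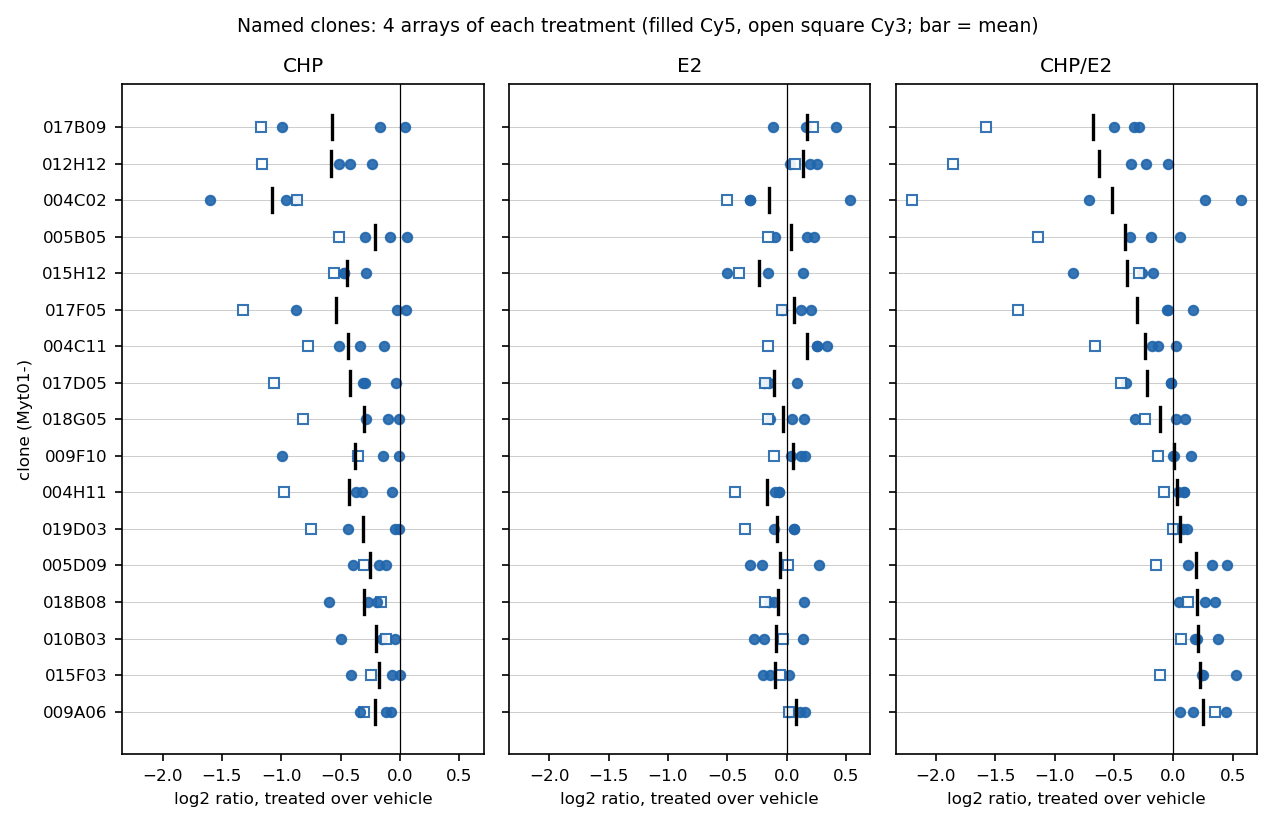
Log2 ratios (treated over vehicle, horizontal axes) of the 17 clones named for the lowest deposited CHP means or for the lowest or highest CHP/E2 means, 1 clone per line ordered by CHP/E2 mean with the lowest at the top; points are the 4 arrays of CHP, E2 and CHP/E2, open squares have treated RNA in Cy3, and bars are means. In Myt01-004C02, Myt01-012H12, Myt01-017B09, Myt01-017F05 and Myt01-005B05 the open square of CHP/E2 lies below -1, apart from the other 3 arrays.

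The signal of the 80 clones was somewhat above that of all clones. Both spots stood above background on all 12 arrays for 46 of the 80 (57.5%, against 46.7% of all clones), and on all 4 CHP/E2 arrays for 54 (67.5%, against 60.2%). In 9 of the 80 (11.2%, against 14.7%) they did so on no CHP/E2 array, and a ratio near 0 gives no level there. Without these 9 the median CHP/E2 mean was -0.06. The 2 spots of a clone differed by a median of 0.05 to 0.08 on the CHP/E2 arrays, less than the median SD of 0.16 between arrays.

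The 80 clones came from 19 of the 20 source plates. Plate 18 held 9 of them (9.47% of its tested clones), plates 6 and 17 held 7 each, and plate 16 held none. Plates 17 and 18 had median CHP/E2 means of -0.16 and -0.11 over their members, and plate 9, with 6 members, had 0.08. Each of the 16 printing blocks of the array carried between 2 and 9 of the clones.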

How the data were processed

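Scanner intensities were deposited by the authors for the Cy5 and Cy3 channels of each of the 12 arrays, as the mean of each spot and the median of its local background, neither subtracted nor normalized. The deposited log2 ratios are the authors' normalized values, for which the sources used here name limma with no version and no normalization method, and they chose the 80 clones. With the dyes of the labels and the turned arrays, recomputed ratios correlated with them at 0.882 to 0.979 across clones.

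Ratios were recomputed with limma 3.58.1 in R 4.3.3 by normexp background correction (offset 50) and loess within arrays, with the 720 control spots at weight 0, and the 2 spots of a clone were averaged. One fit (lmFit, eBayes, prior proportion 0.01) covered the 12 arrays in 3 groups and the 1816 clones with a deposited value, and p-values are two-sided and adjusted over all of them. The 104 clones without a deposited value were left out. The methods call the replicates biological. The scan names give one treated pool number to E2 replicates 2 and 4, and one to CHP/E2 replicates 3 and 4. The fit and each n = 4 counted every array as a replicate, so p-values measure the spread between these arrays. A spot was above background when it exceeded it by 2 of its SDs in either channel, as 62.9% to 85.7% of clone spots did on an array. The 4 arrays per group limit the precision.

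Clones were named when they had one of the 10 lowest deposited CHP means, one of the 5 lowest or 5 highest CHP/E2 means, a call with CHP/E2, or a place next to a limit of the rule. Clones given because a small count held them were named after their values were seen. The clones and lists were chosen with earlier results of these data known. The alternatives covered background correction, normalization, the deposited ratios, dim clones, dye, slide and replicate terms, array weights, shared pool numbers, left-out arrays and the limits of the rule. Leaving out the 3 arrays with exchanged dyes, the deposited ratios of CHP/E2 replicates 1 to 3, and the clones that met the rule by both sets of ratios were added after the data were seen.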

Additional observations from a re-analysis of the deposited data

Results flagged for a closer look

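The 4 CHP/E2 arrays of each of the 17 clones named for their CHP or CHP/E2 means were examined for 1 array far from the other 3 (Dixon's test), and 2 such arrays were found. Chance gives about 1 in 20 sets for clones that were not picked by their values, a rate that does not apply to clones named for extreme CHP/E2 means. Myt01-017F05 had -1.31 on CHP/E2 replicate 4, with the other 3 between -0.05 and 0.16. Myt01-017B09 had -1.58 on the same array, with the others between -0.50 and -0.29. This array has exchanged dyes, and the part of the dye in these values was not tested.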

How the results depend on the processing

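The median CHP/E2 ratio of the 80 clones moved by less than the SD of its array medians (0.10) under every alternative run for it. That SD includes replicate 4 at -0.18 and is larger than the main median of -0.05 in size, so no stability is read from this. The median was -0.08 to 0.0037 with 1 CHP/E2 array left out, and 0.0037 without the 3 dye-swapped arrays. The 8 clones below 0 on all CHP/E2 arrays became 5 with median centring (5.23% of all clones). Stricter limits of the rule left fewer clones. With the E2 limit at 0.15, 4 of 54 were below 0 on all CHP/E2 arrays (7.41%, against 7.32% of all clones). With a CHP limit of -0.35, 6 of 34 were (17.6%). Where fewer arrays have to be below 0, the 8 became 16 with arrays of one treated pool number averaged (14.3% of all clones), 13 without the 3 dye-swapped arrays (19.1% of all clones), 17 with the deposited ratios of replicates 1 to 3 (24.2% of all clones), and 12 to 15 with 1 array left out (11.6% to 19.1% of all clones). The 5 clones lower at an unadjusted p under 0.05 became 3 with no background correction (2.37% of all clones), with median centring (1.10%) or with the CHP/E2 arrays alone (3.14%). With a CHP limit of -0.35, 3 of 34 were lower (8.82%, against 4.46% of all clones). With the E2 limit at 0.15, 2 of 54 were (3.70%). The 5 became 8 with plain subtraction (5.38% of all clones), with the deposited ratios (7.32%) or with array weights (8.43%), 9 with duplicate spots apart (5.95% of all clones) and 18 with a dye term (9.58% of all clones). With 1 array left out the count was 5 to 11, the highest without CHP/E2 replicate 1 (4.63% of all clones). The call by B over 0 stayed at 0 except for 1 clone, Myt01-004C11, with a dye term. That term is shared by the 3 treatments. It gives more weight to the exchanged arrays, also to those of CHP and E2, which made the choice. By adjusted p in limma, 4 clones were lower with a dye term (Myt01-004C11, Myt01-005B05, Myt01-011A12, Myt01-012H12). By the same measure 4 were lower with duplicate spots apart (Myt01-005B05, Myt01-012H12, Myt01-015H12, Myt01-017B09), which counts 2 spots of an array as separate values. With array weights 2 were higher (Myt01-009A06, Myt01-015F03). The shares of all clones by adjusted p in these 3 settings are not given here, so nothing is read from the counts. By B over 0, 1.32%, 2.75% and 1.38% of all clones were called in them, against 0.771% in the main fit. The rule took 34 clones with a CHP limit of -0.35, 82 to 163 with 1 CHP array left out (the most without replicate 2) and 73 to 81 with 1 E2 array left out. Of 354 values of the named clones under alternatives, 14 had the other sign, in 5 clones, none of them called. Same-numbered arrays of different groups did not all deviate together (correlations of -0.45 to 0.60). Since some arrays went against their group labels, this check cannot decide whether the numbers pair the samples. With a replicate block, 7 clones were lower at an unadjusted p under 0.05 (3.91% of all clones) and 0 were called by B over 0 (0.551% of all clones). The causes were not tested where none is given. Signal near background limits the 9 clones at background on every CHP/E2 array.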

Other observations

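Of the 104 clones without a deposited value, 5 met the rule by their recomputed ratios, and all 5 had both spots above background on all 12 arrays. Their mean log2 ratios with CHP/E2 were -0.06 ± 0.18 for Myt01-002D08, -0.28 ± 0.30 for Myt01-004D02, -0.06 ± 0.16 for Myt01-012B08, -0.26 ± 0.24 for Myt01-012D12 and -0.12 ± 0.27 for Myt01-014C05 (SD, n = 4 each). Myt01-004D02 was below 0 on all 4 CHP/E2 arrays, at -0.03, -0.05, -0.38 and -0.65, and the other four were not.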
